A study of Homo sapiens with 4 samples.

Results

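The cornified envelope and small proline-rich (SPRR) genes examined here were 10 genes, found by symbol among the 58735 genes of the count table: SPRR1A, SPRR1B, SPRR2A, SPRR2D, SPRR3, IVL, TGM1, CNFN, CRCT1 and PI3. They were followed in HCC1954, a human breast cancer cell line grown in RPMI-1640 with serum, in which the palmitoyltransferase ZDHHC15 had been knocked down. RNA-seq was done on 2 samples with a scrambled hairpin (shCON) and 2 samples with a hairpin against ZDHHC15 (shZDHHC15). Both hairpins came in GIPZ lentiviral plasmids delivered by lipid transfection, and cells were collected at 36 h. Elsewhere the study describes HCC1954 cells as transduced, with stable knockdown of ZDHHC15, and the methods also mention screening of monoclonal cultures. Neither the number of hairpins nor whether the samples came from separate cultures or clones is stated. With 2 samples a group, p-values therefore measured only the spread between these samples, which may be technical. The exact permutation test of a single gene cannot go below p = 0.333 with this design, so the tests given below come from 1 model over all genes.

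The cornified envelope is the cross-linked protein shell that replaces the plasma membrane of the outermost cells of stratified squamous epithelia. Involucrin (IVL) forms an early scaffold, transglutaminases such as TGM1 join glutamines to lysines, and the SPRR proteins serve as short, flexible cross-bridges whose mix varies between epithelia. PI3 (elafin) is a secreted elastase inhibitor that transglutaminases can also attach to the envelope, CNFN (cornifelin) is an envelope constituent, and CRCT1 encodes a cysteine-rich protein of the same gene cluster. Most of these genes lie together on chromosome 1 in the epidermal differentiation complex. Breast epithelium is not a cornifying tissue, while HCC1954 expresses basal keratins beside amplified ERBB2.

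The knockdown was read first. ZDHHC15 had 17617 and 15716 counts in shCON and 0 and 0 in shZDHHC15, a level at least 6045-fold lower against a floor of 3 counts per library. A hairpin usually leaves part of its target RNA, and why no read of ZDHHC15 was counted in either knockdown sample was not tested. YAP1, the transcriptional coactivator that the study ties to ZDHHC15, had 7764 and 7011 counts against 1024 and 1272 (log2 fold change -2.81, SE 0.105). The total counts were 17560982 to 19118704 per sample, so that 3 counts corresponded to 0.153 to 0.178 CPM (counts scaled to library size, with TMM factors). Of 15817 genes that passed the filter on low counts, 3427 were higher in shZDHHC15 (21.7%) and 3217 were lower (20.3%), by edgeR's quasi-likelihood test at a Benjamini-Hochberg adjusted p under 0.05. All 10 markers of HCC1954 were present with at least 339 counts in every sample.

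The SPRR2 genes are near copies of one another, and their sequences are shown because reads from the coding part can be hard to tell apart. The coding sequences of the 3 most abundant SPRR2 genes in shZDHHC15 are printed 5′ to 3′ without the stop codon, from GENCODE release 29 on GRCh38. Capitals in SPRR2D and SPRR2E mark bases that differ from SPRR2A, and capitals in SPRR2A mark every position at which either of them differs.
SPRR2A: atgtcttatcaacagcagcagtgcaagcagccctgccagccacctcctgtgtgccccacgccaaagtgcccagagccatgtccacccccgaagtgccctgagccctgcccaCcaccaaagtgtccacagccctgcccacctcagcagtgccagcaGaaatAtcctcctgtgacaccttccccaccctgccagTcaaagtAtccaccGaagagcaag
SPRR2D: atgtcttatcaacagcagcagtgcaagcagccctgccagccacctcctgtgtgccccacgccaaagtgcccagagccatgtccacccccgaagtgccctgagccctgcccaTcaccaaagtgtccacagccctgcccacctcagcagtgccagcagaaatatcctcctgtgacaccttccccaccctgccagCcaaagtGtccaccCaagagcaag
SPRR2E: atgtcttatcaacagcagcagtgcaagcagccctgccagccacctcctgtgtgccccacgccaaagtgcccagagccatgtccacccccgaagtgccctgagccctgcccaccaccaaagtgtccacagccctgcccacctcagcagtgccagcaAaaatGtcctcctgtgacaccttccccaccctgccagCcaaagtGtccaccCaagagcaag
SPRR2D differed from SPRR2A at 4 of 216 coding bases (98.1% identical), and SPRR2E at 5 (97.7% identical). SPRR1A and SPRR1B differed at 10 of 267 coding bases (96.3% identical). Proline codons (CCN) made up 37.5% of the codons of SPRR2A, 30.3% of SPRR1A and 22.5% of SPRR3, but 7.52% of IVL, whose codons were to 25.6% those of glutamine (CAA or CAG). Across whole annotated transcripts, 32.7% of the 50-base words of SPRR2A also occurred in another gene, against 19.3% for SPRR2D, 11.3% for SPRR1A and 4.38% for SPRR1B. Of 100-base words, 20.3% of SPRR2A and 3.74% of SPRR2D were shared, and 0% of SPRR1A and SPRR1B. No 50-base word of SPRR3, IVL, TGM1, CNFN, CRCT1 or PI3 was shared. Most of each transcript was thus its own, but short reads in the shared stretches could be split between copies by the counting, so sums over the SPRR1 and SPRR2 genes are given beside the single genes.

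Knockdown of ZDHHC15 went with higher RNA of the SPRR1 and SPRR2 genes, PI3 and TGM1, while IVL and CNFN did not pass the test. Of the 10 genes, 6 were called higher and 0 lower, against 21.7% of all tested genes called higher and 20.3% called lower. IVL and CNFN were tested and not called, and SPRR3 and CRCT1 had too few counts to be tested. SPRR1B passed the filter on low counts only through the shZDHHC15 samples, so that its test was not independent of a high level there, and the other 5 called genes passed it in shCON as well. The median log2 fold change of the 8 tested genes was 1.59, beside 0.02 for all 15817 genes. In RNA from whole cultures, more expressing cells and more RNA per cell cannot be told apart.

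PI3 (chromosome 20, 45174876 to 45176544, plus strand) was the most abundant of the 10 genes and showed the largest rise among the 8 tested. It had 609 and 631 counts in shCON and 4470 and 3819 in shZDHHC15. Its level went from 35.4 ± 2.83 CPM (SD, n = 2) to 217 ± 32.2 CPM, a 6.14-fold rise (log2 fold change 2.62, SE 0.121, edgeR adjusted p = 4.19e-10). Both knockdown samples lay far above both controls, and 98.7% of all tested genes had a smaller log2 fold change.

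SPRR2A (chromosome 1, 153056113 to 153057537, minus strand) had 134 and 155 counts in shCON and 505 and 800 in shZDHHC15. This corresponded to 8.27 ± 1.30 and 33.9 ± 9.64 CPM (SD, n = 2), a 4.12-fold rise (log2 fold change 2.04, SE 0.194, edgeR adjusted p = 1.22e-06). The knockdown samples were well apart from each other, at 27.1 and 40.8 CPM, but both lay above the higher control at 9.19 CPM. SPRR2D (153039725 to 153041931, minus strand) followed at a lower level, with 39 and 33 counts against 103 and 135. It rose 3.03-fold, from 2.05 ± 0.129 to 6.21 ± 0.952 CPM (log2 fold change 1.60, SE 0.253, edgeR adjusted p = 1.58e-04).

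The SPRR1 genes code for cross-bridging proteins, longer than those of SPRR2A and SPRR2D, that are also known from cultured keratinocytes under stress. SPRR1A (152985231 to 152985500, plus strand) had 23 and 40 counts in shCON and 99 and 107 in shZDHHC15. It rose 2.99-fold, from 1.82 ± 0.785 to 5.38 ± 0.0948 CPM (SD, n = 2), with a log2 fold change of 1.58 (SE 0.286, edgeR adjusted p = 4.83e-04). The groups did not overlap, although the controls differed from each other more than the knockdown samples did. SPRR1B (153031202 to 153032900, plus strand) had 14 and 4 counts against 40 and 33, or 0.503 ± 0.375 against 1.92 ± 0.330 CPM. Its 3.69-fold rise (log2 fold change 1.88, SE 0.466, edgeR adjusted p = 4.69e-03) rested on these few counts, and without shCON replicate 2 it was 1.30 on the log2 scale with an adjusted p of 0.0546. Over all alternatives the adjusted p of SPRR1B lay between 0.000532 and 0.0546.

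TGM1 (chromosome 14, 24249114 to 24264432, minus strand), the membrane-bound transglutaminase of keratinocytes, rose less than the SPRR genes did. It had 252 and 281 counts in shCON and 411 and 441 in shZDHHC15, or 15.2 ± 2.01 and 22.3 ± 0.278 CPM (SD, n = 2). The 1.46-fold rise (log2 fold change 0.55, SE 0.140, edgeR adjusted p = 5.74e-03) was larger than the spread within either group.

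IVL and CNFN showed the smallest changes. IVL (chromosome 1, 152908545 to 152911886, plus strand), the scaffold protein onto which SPRR proteins are joined, had 101 and 85 counts in shCON and 90 and 95 in shZDHHC15. Its levels of 5.29 ± 0.354 and 4.84 ± 0.00433 CPM (SD, n = 2) gave a log2 fold change of -0.13, with a 95% interval from -0.58 to 0.32 (edgeR adjusted p = 0.652). CNFN (chromosome 19, 42387019 to 42390287, minus strand) had 103 and 101 counts against 115 and 127. Its levels of 5.82 ± 0.239 and 6.32 ± 0.208 CPM gave a log2 fold change of 0.12, with an interval from -0.29 to 0.54 (edgeR adjusted p = 0.652). These intervals leave room for modest changes in either direction but lie below the estimates for PI3 and the called SPRR genes. The count of PI3 was 6.03 and 7.42 times that of IVL in shCON, and 49.7 and 40.2 times that of IVL in shZDHHC15. The count of SPRR2A was 1.33 and 1.82 times that of IVL in shCON, and 5.61 and 8.42 times in shZDHHC15.

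SPRR3 (chromosome 1, 153001747 to 153003856, plus strand), an SPRR gene of mucosal epithelia, had 5 and 4 counts in shCON and 9 and 17 in shZDHHC15. Without the filter, a fit over 30168 genes gave it a log2 fold change of 1.37 (SE 0.562, edgeR adjusted p = 0.173), which did not pass. CRCT1 (152514502 to 152516010, plus strand) had 6 and 7 counts against 5 and 0, and its value in the same fit was -1.47 (SE 1.03, adjusted p = 0.428). At this depth no difference in SPRR3 or CRCT1 was detectable. No gene of the 10 had 3 or fewer counts in every sample of a group, so none is given as a bound.

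**Figure D1:**
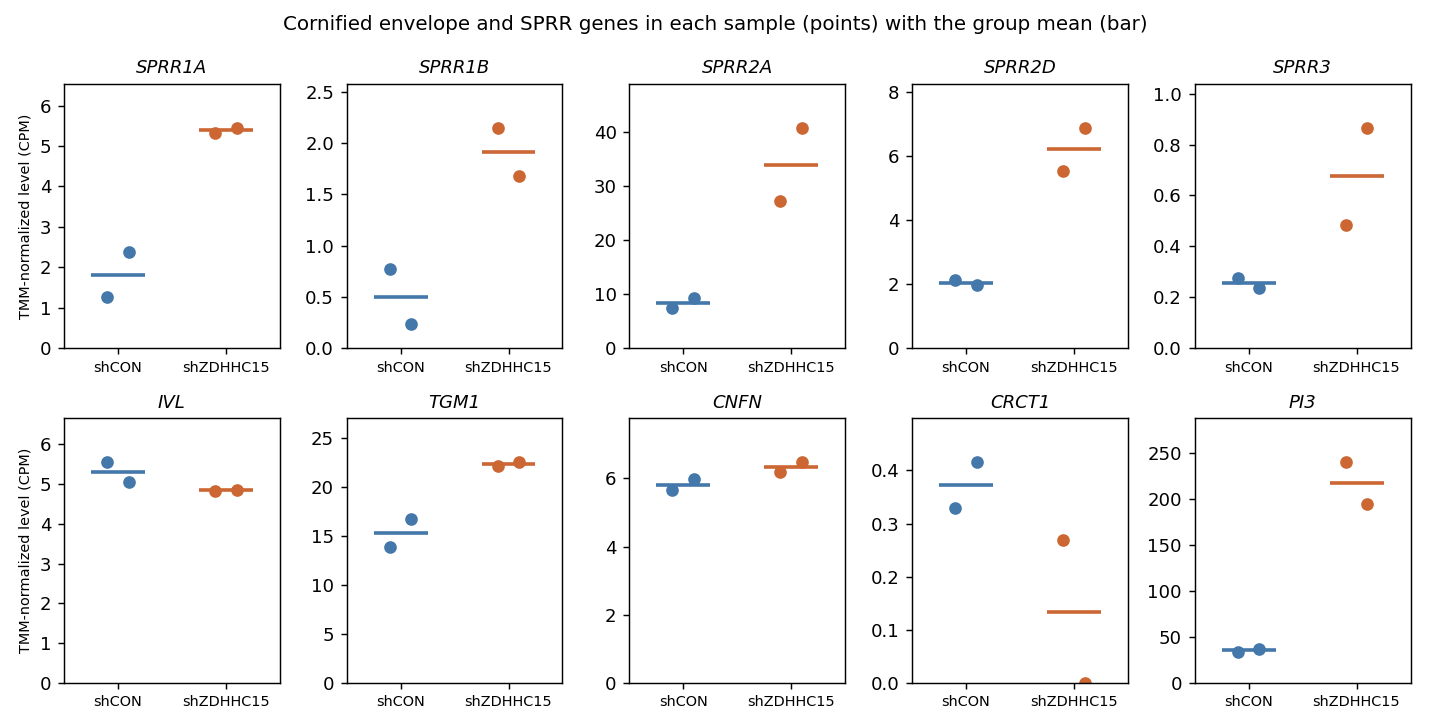
Level in CPM (counts scaled to library size with TMM factors, each axis from 0) of each of the 10 genes in the 2 shCON (blue) and 2 shZDHHC15 (orange) samples, with a bar at the group mean. PI3 runs from 35.4 to 217 CPM between the group means, while the IVL and CNFN points of both groups lie within about 1 CPM of each other.

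**Figure D2:**
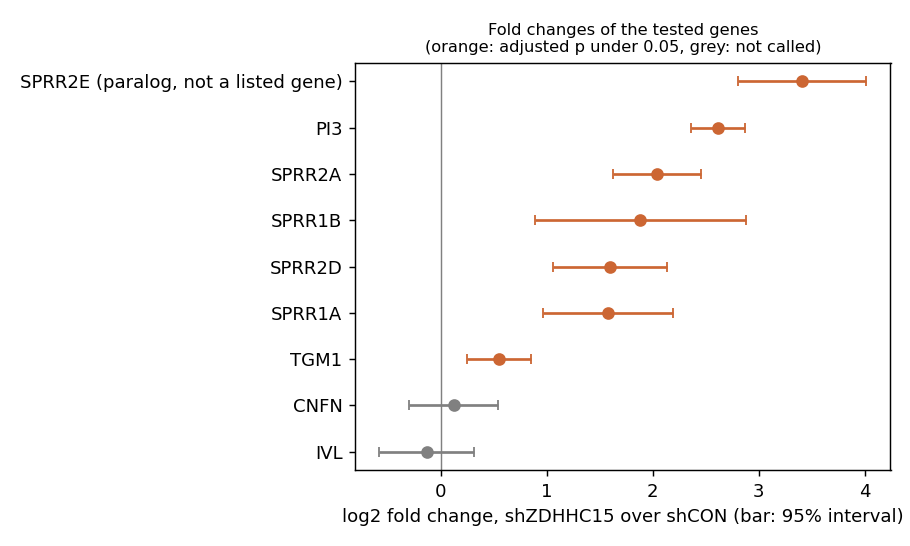
Log2 fold change of shZDHHC15 over shCON with its 95% interval for the 8 tested genes and the paralog SPRR2E, in order of size. The 6 called genes (orange) run from TGM1 at 0.55 to PI3 at 2.62, and the intervals of CNFN and IVL (grey) cross 0.

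Close relatives that were not among the 10 genes moved in the same direction or were barely detected. SPRR2E (chromosome 1, 153093135 to 153106184) had 15 and 19 counts in shCON and 168 and 229 in shZDHHC15, a log2 fold change of 3.41 (SE 0.284, edgeR adjusted p = 3.04e-07). Although its coding sequence, printed above, is nearly that of SPRR2A, its share among the counts of all 11 SPRR genes went from 6.49% and 7.39% to 17.9% and 17.1%. The share of SPRR2A was 58.0% and 60.3% in shCON and 53.7% and 59.8% in shZDHHC15, and it thus stayed the most counted SPRR gene in every sample. The ratio of SPRR2A to SPRR2E counts was 8.93 and 8.16 in shCON and 3.01 and 3.49 in shZDHHC15. The difference between the rises of these genes was not tested.

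SPRR2F had 1 and 0 counts against 13 and 16, which is at least 4.42-fold higher against the floor of 3 counts per library. SPRR2B had 0 and 1 counts against 3 and 1, SPRR2G had 0 and 1 against 0 and 0, and SPRR4 was at 0 in every sample, so no fold is given for these genes. When the reads of near copies were added up, which was chosen after seeing the data, the sum over 6 SPRR2 genes was 189 and 209 counts in shCON and 792 and 1181 in shZDHHC15 (log2 fold change 2.18, SE 0.169, edgeR adjusted p = 1.46e-07). SPRR1A and SPRR1B together had 37 and 44 counts against 139 and 140 (log2 fold change 1.66, SE 0.235, edgeR adjusted p = 5.91e-05). The calls for the SPRR1 and SPRR2 genes as groups thus did not rest on how reads were split between the copies within each sum. SPRR2C, which shares 50-base words with SPRR2A, SPRR2D and SPRR2E, was not in the sum. Reads that the counting dropped or placed at other genes were not examined. Over all 11 SPRR genes, of which 9 had a count in some sample, the summed level was 12.7 and 15.2 CPM in shCON and 50.5 and 68.2 CPM in shZDHHC15. Of the other transglutaminases, TGM2, the widely expressed tissue transglutaminase, had 3089 and 2999 counts against 5640 and 5500 (log2 fold change 0.75, SE 0.0914, edgeR adjusted p = 1.51e-05). RPRD1B overlaps TGM2 on the opposite strand, and whether counting used the strand is not stated. TGM3 had 0 and 3 counts against 0 and 4, and TGM5 had 0 and 0 against 1 and 1.

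Levels of different genes were compared per length, as RPKM (CPM divided by the annotated gene length in kilobases). In shCON the order ran from PI3 at 61.4 RPKM through SPRR2A at 11.7, CNFN at 9.65, SPRR1A at 6.73, TGM1 at 4.08, IVL at 2.46 and SPRR2D at 1.94 to SPRR1B at 0.811, CRCT1 at 0.532 and SPRR3 at 0.177. In shZDHHC15 it ran from PI3 at 377 RPKM through SPRR2A at 47.9, SPRR1A at 19.9, CNFN at 10.5, TGM1 at 5.96, SPRR2D at 5.87 and SPRR1B at 3.09 to IVL at 2.25, SPRR3 at 0.468 and CRCT1 at 0.192. SPRR1A thus passed CNFN, and SPRR2D and SPRR1B passed IVL. The samples of SPRR1B and CRCT1 overlapped in shCON, as did those of TGM1 and SPRR2D and those of SPRR3 and CRCT1 in shZDHHC15, so these neighbours were not told apart. The annotated model of SPRR1A holds only its 270 coding bases, so its per-length level is less comparable with the rest.

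**Figure D3:**
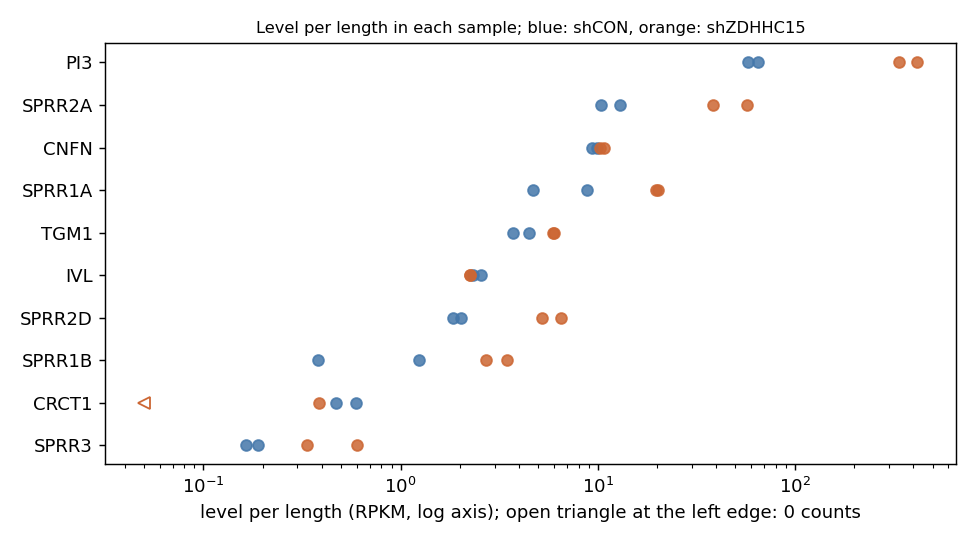
Level per length (RPKM, log axis) of the 10 genes in each of the 4 samples, blue for shCON and orange for shZDHHC15, with an open triangle at the left edge for the shZDHHC15 sample of CRCT1 with 0 counts. PI3 stands alone at the top with group means of 61.4 and 377 RPKM, and SPRR3 and CRCT1 lie below 1 RPKM in every sample.

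The promoters of SPRR genes are known to be driven by AP-1, the FOS and JUN dimer, together with ETS, KLF and octamer-binding factors. RefSeq promoter sequences (GRCh38.p14, 250 bases before the start site) were matched for 6 of the 10 genes, namely IVL, SPRR1A, SPRR1B, SPRR2A, SPRR3 and CNFN. Printed below are those of 3 genes that rose and of IVL, which did not pass the test, so that they can be compared. Each reads 5′ to 3′ on the gene's strand, with capitals for matches to AP-1 (TGANTCA), ETS (AGGAAG), the octamer (ATGCAAAT) and the TATA box (TATAAA), in either orientation. The last bases of the SPRR2A sequence lie inside the first exon of its GENCODE model.
SPRR1A, chr1:152983831-152984080, plus strand: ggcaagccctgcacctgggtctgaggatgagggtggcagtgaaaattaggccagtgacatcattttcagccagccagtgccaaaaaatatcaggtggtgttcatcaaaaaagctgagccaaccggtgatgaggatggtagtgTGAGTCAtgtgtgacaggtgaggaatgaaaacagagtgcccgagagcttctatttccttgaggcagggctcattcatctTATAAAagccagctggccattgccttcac
SPRR1B, chr1:153030953-153031202, plus strand: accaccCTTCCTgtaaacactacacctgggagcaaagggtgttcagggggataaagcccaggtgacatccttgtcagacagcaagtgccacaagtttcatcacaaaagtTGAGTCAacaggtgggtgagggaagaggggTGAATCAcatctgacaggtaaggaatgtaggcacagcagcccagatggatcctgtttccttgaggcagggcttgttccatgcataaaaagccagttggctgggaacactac
SPRR2A, chr1:153057513-153057762, minus strand: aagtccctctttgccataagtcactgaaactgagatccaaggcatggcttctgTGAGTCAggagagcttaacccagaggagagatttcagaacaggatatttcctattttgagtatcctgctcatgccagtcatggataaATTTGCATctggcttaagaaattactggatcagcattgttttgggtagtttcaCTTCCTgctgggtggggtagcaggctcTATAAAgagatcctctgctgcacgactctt
IVL, chr1:152908296-152908545, plus strand: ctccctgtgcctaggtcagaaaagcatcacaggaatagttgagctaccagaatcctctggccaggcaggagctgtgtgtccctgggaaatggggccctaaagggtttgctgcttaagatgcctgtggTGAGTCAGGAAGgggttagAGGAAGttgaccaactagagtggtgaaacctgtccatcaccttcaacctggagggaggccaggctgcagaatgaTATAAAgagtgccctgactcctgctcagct
An AP-1 match was found in 5 of the 6 promoters, including IVL, and in 6.57% of all 35116 promoters of the table. The AP-1 match began 108 bases before the start in SPRR1A, 123 in IVL and 197 in SPRR2A, and SPRR1B held 2 such matches, at 141 and 111 bases. CNFN had none. The promoter of IVL, whose RNA did not pass the test, thus shared the AP-1, ETS and TATA matches of SPRR2A. An ETS match was in 4 of the 6 promoters (28.7% of all promoters), and a TATA box in 4 (10.7%). The octamer was found in SPRR2A (1.63% of all promoters), 110 bases before the start. It was also found in the paralogs SPRR2B and SPRR2F.

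The sequence GGAATG, bound by the TEAD partners of YAP, was found in SPRR1A, SPRR1B and SPRR3 at 87, 90 and 91 bases before the start, and in 11.9% of all promoters. It was not found in the SPRR2A, IVL or CNFN windows. The KLF motif CCACCC was in 5 of the 6 promoters and in 31.3% of all. The motifs named IRF (3.02% of all promoters), NFkB (1.40%), STAT (TTCNNNGAA, 6.57%) and GRHL (AACNNGTT, 3.00%) were in 0 of the 6. All motifs were searched on both strands. A match is a description of the sequence and not of binding, and other letters or other windows were not examined.

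Genes of the complex were also read in their order along chromosome 1. Between S100A10 and S100A1 the table had 64 protein-coding genes, of which 33 had at most 3 counts in every sample. Of the 26 tested, 13 were called higher and 5 lower, beside 21.7% and 20.3% of all tested genes. Without the genes under study, 9 of 21 tested were higher and 5 lower. From SPRR5 to S100A7, a run of 22 genes whose limits were chosen after the values were seen, each of the 12 tested genes was called higher, with log2 fold changes from 1.44 (S100A7) to 3.41 (SPRR2E), SPRR2F being given as a bound above. Of the 12, 3 (SPRR1B, SPRR2F and PGLYRP4) passed the filter only through shZDHHC15. Immediately before this run, from S100A10 to IVL, 5 of 33 genes were tested, of which 0 were higher and 1 (S100A10) lower. After it, from S100A6 to S100A1, 1 of 9 tested genes was higher (S100A3) and 4 were lower.

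The next tested gene after the SPRR genes, PGLYRP4, a peptidoglycan-recognition protein of epithelia, had 14 and 8 counts in shCON and 80 and 65 in shZDHHC15 (log2 fold change 2.59). Beyond it, the calprotectin subunits S100A9 and S100A8, which are abundant in inflamed epithelium, had log2 fold changes of 1.57 and 2.52. S100A12, S100A7A and S100A7 (psoriasin) had log2 fold changes of 2.08, 2.76 and 1.44, all with edgeR adjusted p under 0.05. PI3, TGM1 and CNFN lie on other chromosomes.

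**Figure D4:**
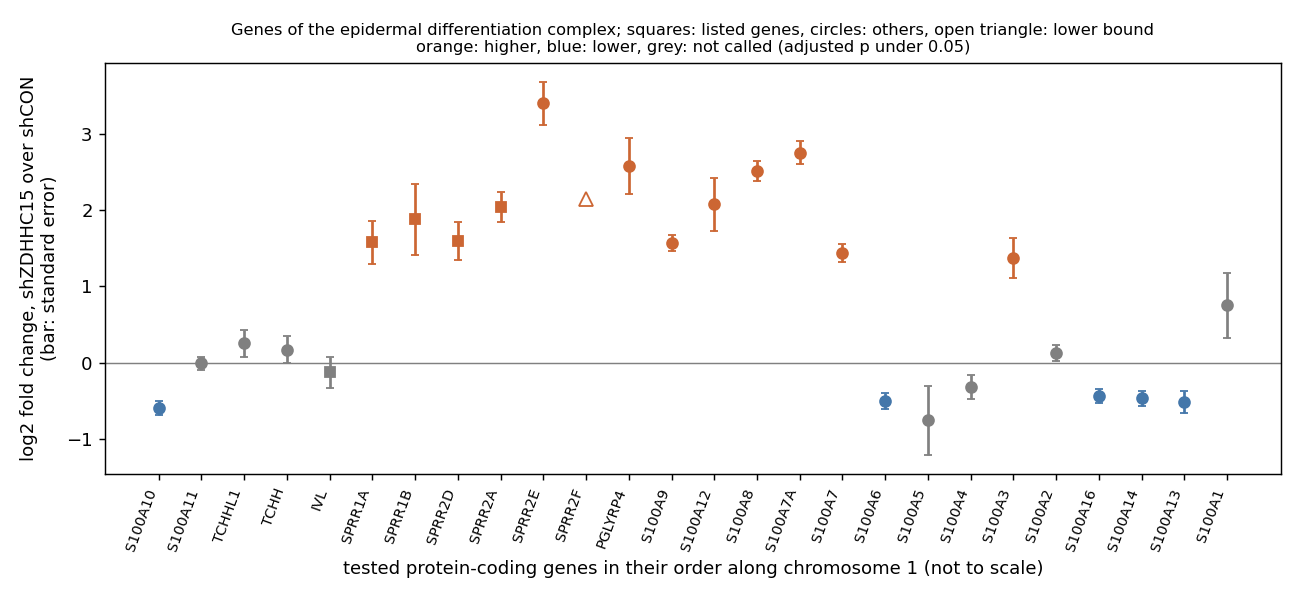
Log2 fold change of shZDHHC15 over shCON, with its standard error, of the 26 tested protein-coding genes of the epidermal differentiation complex in their order along the chromosome (even spacing, not to scale). The 12 genes from SPRR1A to S100A7 are orange (higher, the open triangle of SPRR2F being a lower bound), whereas IVL and the genes before it are grey or blue.

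Other genes of cornification were taken from lists written from general knowledge, and their counts are to be read beside the 21.7% of all tested genes called higher and 20.3% called lower. Among 26 further SPRR and late cornified envelope (LCE) precursors, 23 had at most 3 counts in every sample and 16 had none, and only SPRR2E and SPRR2F could be tested. Of 27 other envelope and scaffold proteins, 10 were tested, 5 were higher (50%) and 1 was lower (10%), with a median log2 fold change of 0.42. Of the 27, 12 had at most 3 counts in every sample and 7 had none. LOR (loricrin) was at 0 in every sample, and FLG (filaggrin) had 4 and 7 counts against 9 and 6 and was not tested. Those higher were SBSN (suprabasin, 1.23), CSTA (cystatin A, a protease inhibitor cross-linked into the envelope, 1.03), DSP (desmoplakin, 0.63), PPL (periplakin, 0.62) and EVPL (envoplakin, 0.59). CSTA, for example, had 114 and 105 counts in shCON and 239 and 249 in shZDHHC15 (SE 0.169, edgeR adjusted p = 2.07e-04). SCEL (sciellin) was lower by the test, at -0.70 (SE 0.236, edgeR adjusted p = 0.0268), but this call was lost in 5 of the alternatives, among them without shCON replicate 1 (-0.40) and without shZDHHC15 replicate 2 (-0.53). The call for SBSN was lost without shCON replicate 1 (1.11, adjusted p = 0.0612).

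Of 20 enzymes of cross-linking, deimination and the lipid envelope, 10 were tested, 5 were higher (50%) and 1 was lower (10%), beside 21.7% and 20.3% of all tested genes (median 0.36). CASP14, the protease of terminal keratinocyte differentiation, had 363 and 347 counts against 1427 and 768 (log2 fold change 1.51, SE 0.223, edgeR adjusted p = 8.42e-05). PADI1, a peptidylarginine deiminase, had 63 and 53 counts against 190 and 167 (SE 0.212, edgeR adjusted p = 5.76e-05). ABCA12, a transporter of lipids into lamellar granules, was at 1.43, and TGM2 at 0.75 as given above. ALOXE3, a lipoxygenase of the lipid envelope, fell by 1.45 on the log2 scale (127 and 111 counts against 34 and 61, SE 0.255, edgeR adjusted p = 3.80e-04).

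The keratins did not follow the SPRR genes. Of 14 suprabasal and mucosal keratins 10 were tested, 1 was higher (10%) and 6 were lower (60%), beside 21.7% and 20.3% of all tested genes, with a median log2 fold change of -0.68. KRT13, the suprabasal keratin of mucosa, had 262 and 274 counts against 52 and 81 (log2 fold change -2.14, SE 0.203, edgeR adjusted p = 1.22e-06). KRT80 was at -1.30 and KRT16, a keratin of activated keratinocytes, at -1.20. The keratin that rose was KRT6B, from 2054 and 2085 to 4972 and 6302 counts (log2 fold change 1.32, SE 0.106). KRT6A went the other way, from 2110 and 2232 to 1185 and 1647 counts (-0.75, SE 0.125, edgeR adjusted p = 2.39e-04). Sequence shared by KRT6A and KRT6B, and how their reads were split, was not examined. Among 10 markers of the basal layer, 2 were higher (DST at 1.31 and CDH3 at 0.37) and 3 lower (KRT14 with 97 and 103 counts against 46 and 63, KRT5 at -0.64 and ITGB4 at -0.28), which is near the shares over all tested genes.

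Of 35 regulators of squamous differentiation 33 were tested, 10 were higher (30.3%) and 9 lower (27.3%), not far from the 21.7% and 20.3% of all tested genes (median -0.10). SOX2, a transcription factor of squamous and stem cells, had the highest log2 fold change, from 6 and 3 to 57 and 49 counts (3.40, SE 0.465, edgeR adjusted p = 4.32e-05), but like SPRR1B it passed the filter only through shZDHHC15. MAF, which acts in keratinocyte differentiation, was at 1.53, GRHL1 at 0.92, TP63, the master regulator of stratified epithelia, at 0.61 and NOTCH1 at 0.33. The AP-1 subunits FOSL1 and JUN were lower in RNA, at -1.20 (5519 and 5493 counts against 2041 and 3219) and -0.77, as was TFAP2A at -0.74. JUND (-0.66, edgeR adjusted p = 6.32e-05) and JUNB (-0.33, adjusted p = 8.93e-03) were also called lower. The AP-1 subunits did not all go this way. FOSL2 was called higher at 0.24 (edgeR adjusted p = 0.0340), a call that was lost in 8 of the alternatives, and FOS (0.13) and FOSB (-0.17) did not pass. KLF4, which promotes barrier formation, was lower at -0.70. GRHL3 (-0.40, edgeR adjusted p = 0.170), OVOL1 (-0.29, adjusted p = 0.107) and ZNF750 (1.38, adjusted p = 0.0759) did not pass. Over these 5 lists together, basal markers aside, 23 of 65 tested genes were higher (35.4%) and 17 lower (26.2%), beside 21.7% and 20.3% of all tested genes, with a median of 0.08.

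Markers of other cells and of the line itself moved as well, and their part in these results was not tested. The numbers called are to be read beside the 21.7% of all tested genes called higher and 20.3% called lower. The summed level of the 10 HCC1954 markers was 22300 to 24400 CPM in shCON and 14300 to 15100 CPM in shZDHHC15, and 7 of the 10 were lower, KRT17 and KRT18 with the largest falls. ERBB2, the amplified oncogene of the line, had 101910 and 100029 counts against 93750 and 92598. The 10 leukocyte markers summed to 1.36 to 1.54 CPM in shCON and 1.78 to 2.63 CPM in shZDHHC15. CD3E, CD3D and MS4A1 were among those at 0, while ITGAM had 5 and 8 counts against 7 and 4. Whether leukocytes, which are rich in S100A8 and S100A9, contributed to the counts of these genes was not tested. CD14, with 9 and 5 counts against 25 and 22, was the 1 leukocyte marker tested. It was called higher, but it passed the filter only through shZDHHC15, and the call was lost in 3 of the alternatives. Of 10 fibroblast markers 2 were tested and 1 was higher (COL1A1 at 0.65). Their sum was 26.4 to 33.2 CPM against 37.1 to 41.0 CPM, with LUM and DPT at 0. Of 6 endothelial markers, summing to 57.5 CPM in both shCON samples and 101 to 108 CPM in shZDHHC15, PECAM1 (75 and 56 counts against 666 and 405) and CDH5 were higher, KDR was lower and EMCN was at 0. The calls for COL1A1 and KDR were each lost in 4 of the alternatives. Of 5 luminal hormone receptor markers 2 were higher, among them ESR1 at 1.09, with sums of 235 to 241 CPM against 254 to 261 CPM.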

How the data were processed

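RNA-seq of HCC1954 cells gave 4 samples, grouped by their titles. The authors deposited 1 table of raw counts per gene, not normalized. The library kit was NEBNext Ultra, on total RNA. The submitters' processing notes name HISAT2, StringTie, SAMtools and hg38; the counter, annotation and use of strand are not given in the sources used here. Of 58735 genes, 58724 matched GENCODE release 29 in identifier, symbol, start and end. No count column went unused (0 columns).

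Genes were filtered with filterByExpr (minimum count 10), scaled by TMM (factors 0.962 to 1.03) and tested with glmQLFit (legacy = FALSE) and glmQLFTest in edgeR 4.0.16 (R 4.3.3, limma 3.58.1), with Benjamini-Hochberg adjustment over 15817 genes at 0.05. The standard error is the log2 fold change over the root of F. RPKM used the length column. A group with at most 3 counts in each sample gives a bound. Floors cover counting error only. The fits were tested on simulated data.

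Samples of a group differed beyond sampling noise (chi-square per degree of freedom 8.32 in shCON and 6.79 in shZDHHC15), so each counted once. Alternatives were other scalings and filters, DESeq2 1.42.0, the legacy dispersion, a replicate block and leaving out each sample. The 10 genes and all lists were chosen with earlier results of these data known. Named genes were the 10, their paralogs, up to 3 called rises and falls with the largest size per list, stated regulators, ZDHHC15, YAP1 and neighbours in the complex. PPL, EVPL, LOR, FLG, S100A7, S100A7A, S100A12, S100A3, S100A10, FOSL2, FOS, FOSB, JUNB, JUND and KRT6A, and the markers of other cells given by value, were named after their values were seen. A few genes of the lists are counted but not reported here by name. Promoter sequences came from RefSeq (GRCh38.p14) and coding sequences from GENCODE release 29.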

Additional observations from a re-analysis of the deposited data

How the results depend on the processing

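Counts of called genes and the single genes given by value were recomputed under 12 alternatives, or 11 for genes with too few counts for the strictest filter (SPRR1B, SOX2, PGLYRP4, ZNF750 and CD14). ZDHHC15 and SPRR2F, given as bounds, the SPRR sums, and JUNB, JUND and KRT6A were not run under them. Among the 10 genes, 6 were called higher under 10 of them and 5 under the other 2, where SPRR1B was lost: it was not tested where every sample had to reach 10 counts, and it missed the threshold without shCON replicate 2 (1.30, adjusted p = 0.0546). None was called lower by edgeR or DESeq2, and as reported 0 had a negative fold change at an unadjusted p under 0.05. The log2 fold changes ranged from 2.46 to 2.76 for PI3, 1.71 to 2.30 for SPRR2A, 1.42 to 1.74 for SPRR2D, 1.15 to 2.08 for SPRR1A, 1.30 to 2.94 for SPRR1B, 0.39 to 0.68 for TGM1, 0.05 to 0.20 for CNFN and -0.21 to -0.06 for IVL. Without a filter, 2282 genes were higher over the whole table instead of 3427, with 30168 genes tested; the cause was not tested. With library sizes alone, which moved the median of all genes to 0.09, 3926 genes were higher and 2545 lower. Leaving out each sample in turn gave 2524 to 3406 genes higher and 2201 to 3476 lower; the lone sample of a group was then assumed to vary like the other. The labels do not say what the replicate numbers stand for. Over genes, deviations from the group mean of the samples numbered 1 were nearly uncorrelated (r = 0.0344). With 2 samples a group, this value cannot exclude a pairing by number that affects some of the genes. With the replicate block, 3723 genes were higher and 3502 lower, and the same 6 of the 10 genes were called. Of the values run for single genes, 708 kept direction and call, 41 lost the call and 2 gained it, and none reversed. The calls lost at least once included those of SBSN, SCEL, NOTCH1, CDH3, ITGB4, SPRR1B, FOSL2, ERBB2, CD14, COL1A1 and KDR, and the cause was not tested. With 1 sample left out, values without a call were 0.29 to 0.36 for NOTCH1, 0.34 for CDH3, -0.31 to -0.24 for ITGB4, 1.29 to 1.47 for CD14, 0.38 to 0.43 for COL1A1 and -0.52 to -0.46 for KDR. GRHL3 passed without shZDHHC15 replicate 2 (-0.71) and OVOL1 without shCON replicate 1 (-0.40). Depth limits what can be said of SPRR3, CRCT1, SPRR1B, SPRR2B, SPRR2F and SPRR2G.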
